A study of Hordeum vulgare with 39 samples.

Results

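The 27 barley genes described here had their highest RNA level in the embryo at 24 days after pollination (DAP) and stayed far lower in the other seed tissues at every stage. They were chosen from 83990 transcript entries of a read count table by 3 conditions on the mean of each tissue and stage. Levels were CPM, the read count of an entry scaled to a library total of 1000000 counts. The highest of the 13 group means had to be that of the 24 DAP embryo, it had to reach 20 CPM, and it had to be at least 10 times the highest mean of the endosperm and of the seed maternal tissues. Of the 2488 entries highest in the 24 DAP embryo, 491 reached 20 CPM and 27 of these also met the fold over other tissues. An entry is called a gene below.

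All libraries came from the genotype Morex, a six-rowed spring cultivar of Hordeum vulgare, grown in a climate chamber. Seeds were dissected by hand into embryo (8, 16, 24 and 32 DAP), endosperm (4, 8, 16, 24 and 32 DAP) and seed maternal tissues (4, 8, 16 and 24 DAP), with 3 libraries of poly-A RNA in each of these 13 groups. There was no treatment or mutant. The labels number the replicates but do not say whether they came from separate plants. The p-values below set a difference against the spread between libraries, estimated over all groups in the fit. That spread may be technical.

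In cereal seeds the embryo forms its organs first and then passes into maturation, when it lays down oil, storage proteins and sugars, gains tolerance to drying and enters dormancy under the influence of abscisic acid. The endosperm, the starchy store of the grain, is a product of double fertilization, whereas the seed maternal tissues (pericarp, seed coats) belong to the mother plant. The identifiers of these data could not be paired with gene names here, so no member has a stated function. The tissue labels could not be checked against marker genes for the same reason.

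Total counts ran from 15248254 to 36732347 in the 12 embryo libraries, from 6148131 to 36307192 in the 15 endosperm libraries and from 25882919 to 34193328 in the 12 libraries of seed maternal tissues. The library numbers in the sample titles, which the labels do not explain, fell into runs. Replicates 1 and 2 of the 24 DAP embryo were in the run 83680 to 83691, whereas replicate 3 was in the run 97733 to 97745 together with all 6 libraries of seed maternal tissues at 16 and 24 DAP. All 32 DAP libraries were in a run of their own, 104710 to 104715, so for that stage the library number and the age of the seed cannot be told apart. In bulk tissue, fewer cells of a type and less RNA per cell cannot be told apart either, and this applies to every level below.

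Because the rule used the mean of every group, the levels given up to the first comparison between other groups are a description without a test. The members together took 0.0166% ± 0.000320 (SD, n = 3) of the counts in the 8 DAP embryo and 0.126% ± 0.0572 at 16 DAP. Their share was 0.948% ± 0.0259 at 24 DAP and 0.710% ± 0.114 at 32 DAP. The 3 libraries at 24 DAP summed to between 9233 and 9750 CPM and lay above the 3 at 32 DAP, which summed to between 5789 and 7782 CPM. At 16 DAP replicate 1 summed to 607 CPM, against 1666 and 1511 CPM in replicates 2 and 3. Replicate 1 was the lowest of the 3 libraries at 16 DAP for 18 of the 27 members.

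**Figure D1:**
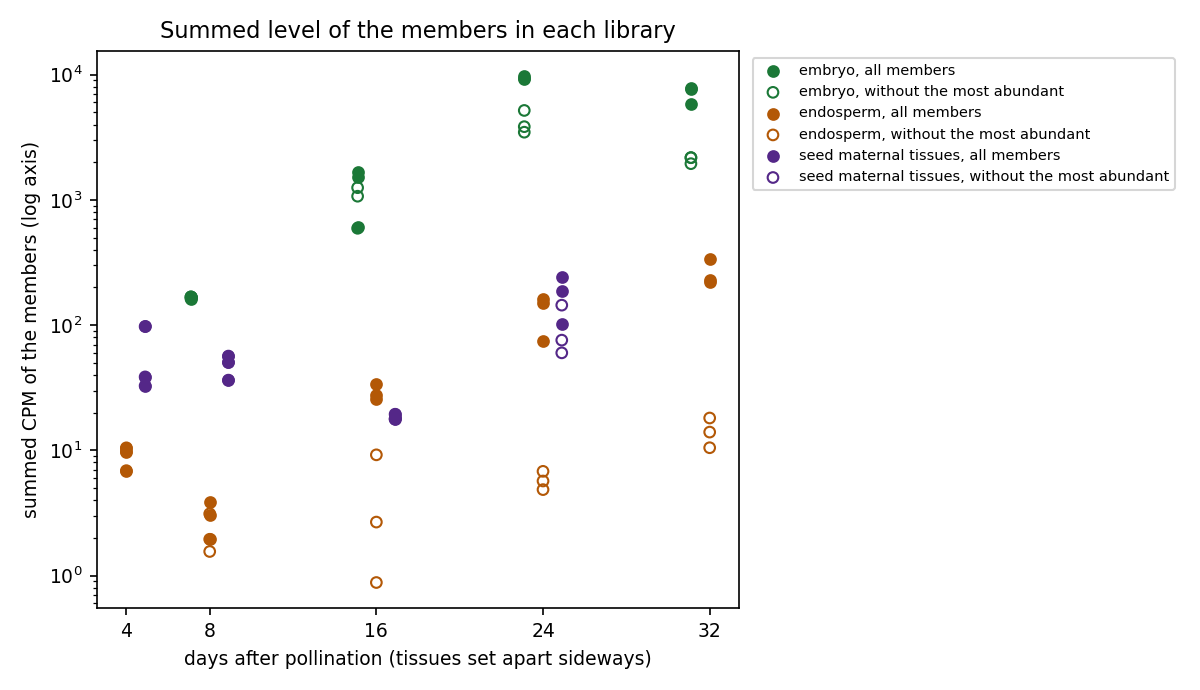
Summed level of the members in each of the 39 libraries, in CPM on a log axis, by tissue and stage; filled points are all 27 members, and open points leave out the most abundant one. The embryo mean goes from 166 CPM at 8 DAP to 9481 CPM at 24 DAP.

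A single gene carried much of this sum. HORVU.MOREX.r3.1HG0061780.1 had 0, 0.0567 and 0.109 CPM in the 3 embryo libraries at 8 DAP. It had 13.3, 413 and 441 CPM at 16 DAP. It then had 5760, 5905 and 4276 CPM at 24 DAP and 5564, 5604 and 3841 CPM at 32 DAP. The gene was almost silent in the young embryo, and its libraries at 24 and 32 DAP overlapped. It accounted for 56.0% of the members' summed CPM at 24 DAP and 70.4% at 32 DAP, as shares of reads that are not corrected for transcript length. Without it the other 26 members summed to 166 ± 3.16 CPM (SD, n = 3) at 8 DAP, 972 ± 340 CPM at 16 DAP, 4167 ± 898 CPM at 24 DAP and 2099 ± 132 CPM at 32 DAP.

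The second highest member, HORVU.MOREX.r3.1HG0078800.1, had 1.11, 0.113 and 0.327 CPM in the embryo at 8 DAP and 156, 425 and 378 CPM at 16 DAP. It had 844, 840 and 1708 CPM at 24 DAP and 501, 492 and 418 CPM at 32 DAP. Its 3 libraries at 24 DAP lay above all others, and the library of replicate 3 stood at 2.03 times the mean of the other two. Over the 27 members, replicate 3 was the lowest library at 24 DAP for 12 and the highest for 8. It exceeded the mean of the other libraries by more than 1.5 times for 3 members and fell short of it by as much for 5.

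**Figure D2:**
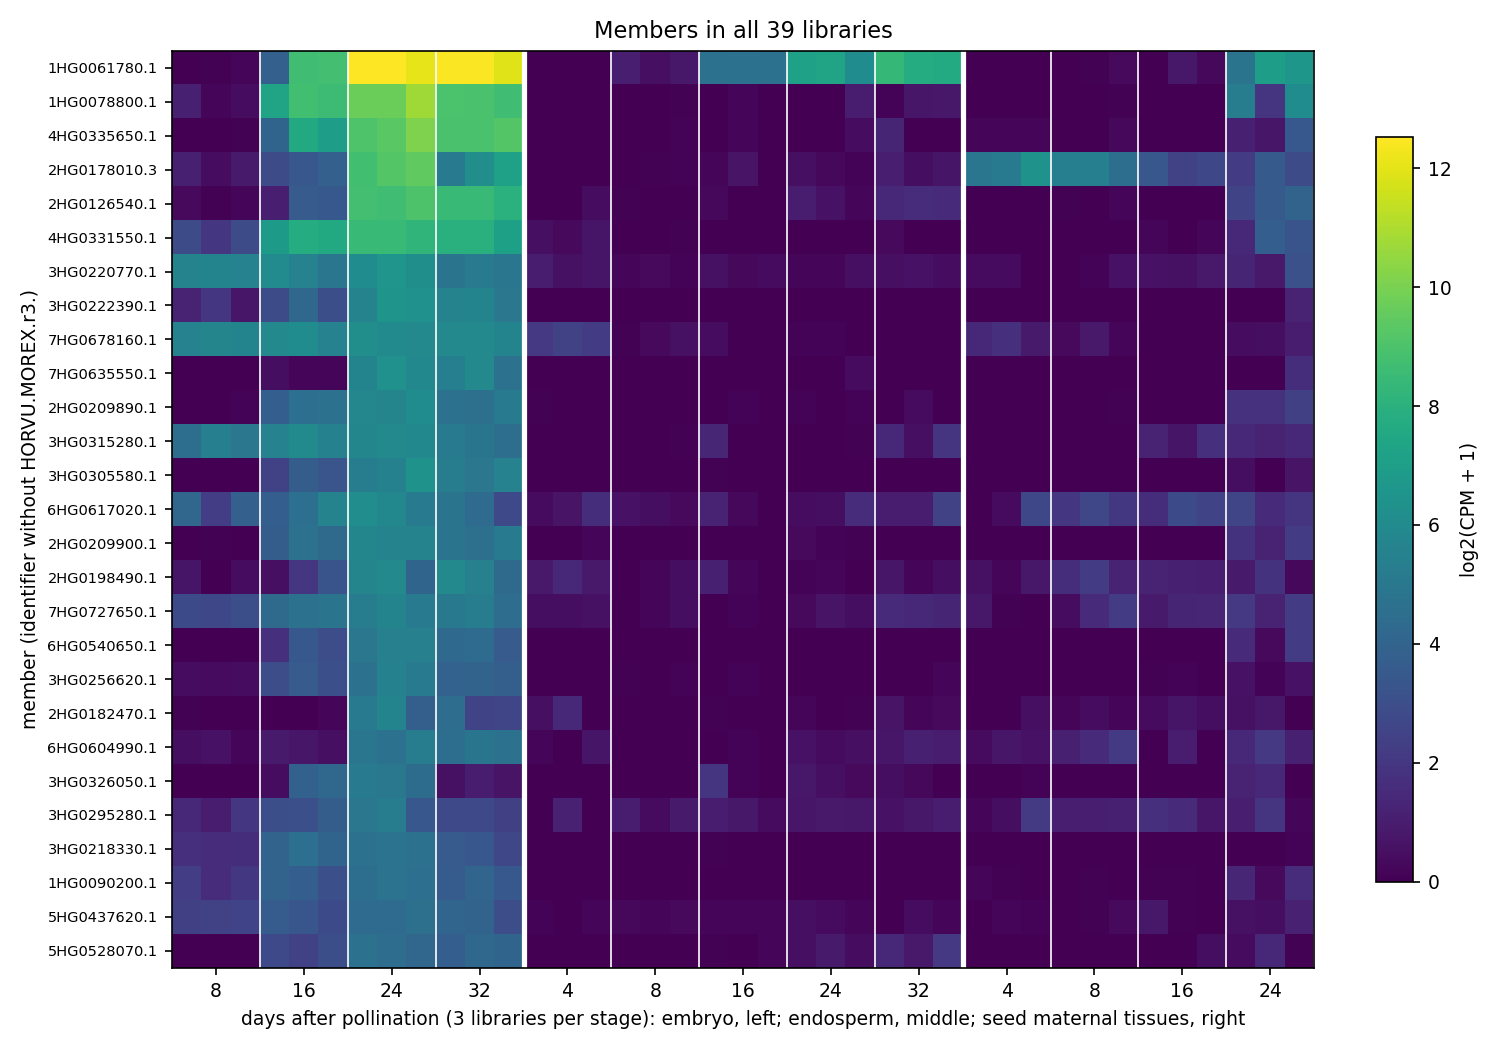
Heat map of the 27 members (rows, ordered by their mean in the 24 DAP embryo) in the 39 libraries (columns, by tissue and stage), with colour giving log2 of CPM + 1. The high values lie in the embryo columns at 24 and 32 DAP, and in the endosperm columns the row of HORVU.MOREX.r3.1HG0061780.1 stands out, with 249 CPM on average at 32 DAP.

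Most members were abundant to a moderate degree, 21 of them between 20 and 100 CPM at 24 DAP and 6 at 100 CPM or more. The median member had 0.347 CPM in the embryo at 8 DAP, 10.8 CPM at 16 DAP, 54.3 CPM at 24 DAP and 28.9 CPM at 32 DAP. At 8 DAP 16 members were under 1 CPM, 7 lay between 1 and 10 CPM and 4 reached 10 CPM. The level at 8 DAP thus ran from 0 counts to 48.7 CPM. The next highest embryo stage was 32 DAP for 20 members, 16 DAP for 6 and 8 DAP for 1.

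The peak at 24 DAP was shallow for many members. Its mean stood at a median of 1.62 times the next embryo stage, with a range from 1.03 to 6.85, and 12 members were under 1.5 times. The 3 libraries at 24 DAP all lay above the 3 at 32 DAP for 16 members and above the 3 at 16 DAP for 23. For the remaining 11 members the order of 24 and 32 DAP was within the spread of the libraries. The members were chosen by their 24 DAP mean, which favours libraries that lie apart, so these counts are no test of the peak. At 32 DAP 16 members still had 50% or more of their 24 DAP level, with a median of 58.9%.

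The steepest peak belonged to HORVU.MOREX.r3.2HG0178010.3. Its embryo libraries had 1.11, 0.340 and 0.844 CPM at 8 DAP and 6.20, 9.68 and 13.4 CPM at 16 DAP. They had 425, 584 and 711 CPM at 24 DAP and 35.8, 71.8 and 143 CPM at 32 DAP. All 3 libraries at 24 DAP lay above every other library, and the mean was 6.85 times that of 32 DAP, the only member at 5 times or more. In the seed maternal tissues it had 28.8, 34.1 and 85.5 CPM at 4 DAP and averaged 35.4 CPM at 8 DAP. Its 24 DAP embryo mean was 11.6 times the 4 DAP maternal mean of 49.5 CPM. This gene had 2 further transcript entries. HORVU.MOREX.r3.2HG0178010.1 averaged 36.6 CPM in the 24 DAP embryo and 21.8 CPM in the 4 DAP seed maternal tissues, and HORVU.MOREX.r3.2HG0178010.2 had no reads in any group. How reads shared between such entries were assigned is not given in the sources used here, so the level of the single entry is uncertain. With counts summed over the entries of each gene, 26 genes met the rule, and this gene was not among them.

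HORVU.MOREX.r3.2HG0182470.1 had the next largest ratio, 3.04 times its 32 DAP mean. It had 33.7, 48.8 and 12.99 CPM at 24 DAP and 21.3, 4.92 and 5.18 CPM at 32 DAP, so the libraries of both stages overlapped. At the other end HORVU.MOREX.r3.2HG0198490.1 had 50.6, 58.2 and 15.7 CPM at 24 DAP and 58.9, 43.0 and 18.8 CPM at 32 DAP. Its ratio of 1.03 leaves the 2 stages indistinguishable, and it was the member closest to being placed at another embryo stage.

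Some members departed from this course and were singled out after their values were seen. HORVU.MOREX.r3.7HG0678160.1 was nearly level, with 46.4, 50.5 and 49.3 CPM in the embryo at 8 DAP, 58.3, 66.5 and 46.4 CPM at 16 DAP, 72.4, 61.4 and 57.8 CPM at 24 DAP and 59.2, 58.7 and 49.7 CPM at 32 DAP. HORVU.MOREX.r3.3HG0220770.1 was the member whose next highest stage was 8 DAP, with 48.1, 49.5 and 46.0 CPM there and 66.5, 91.3 and 74.4 CPM at 24 DAP. HORVU.MOREX.r3.3HG0326050.1 had 0 counts in all 3 libraries at 8 DAP, 0.313, 14.04 and 18.0 CPM at 16 DAP, 35.9, 31.7 and 20.3 CPM at 24 DAP and 0.485, 1.02 and 0.607 CPM at 32 DAP. It was the only member under 10% of its 24 DAP level at 32 DAP, at 2.40%.

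**Figure D3:**
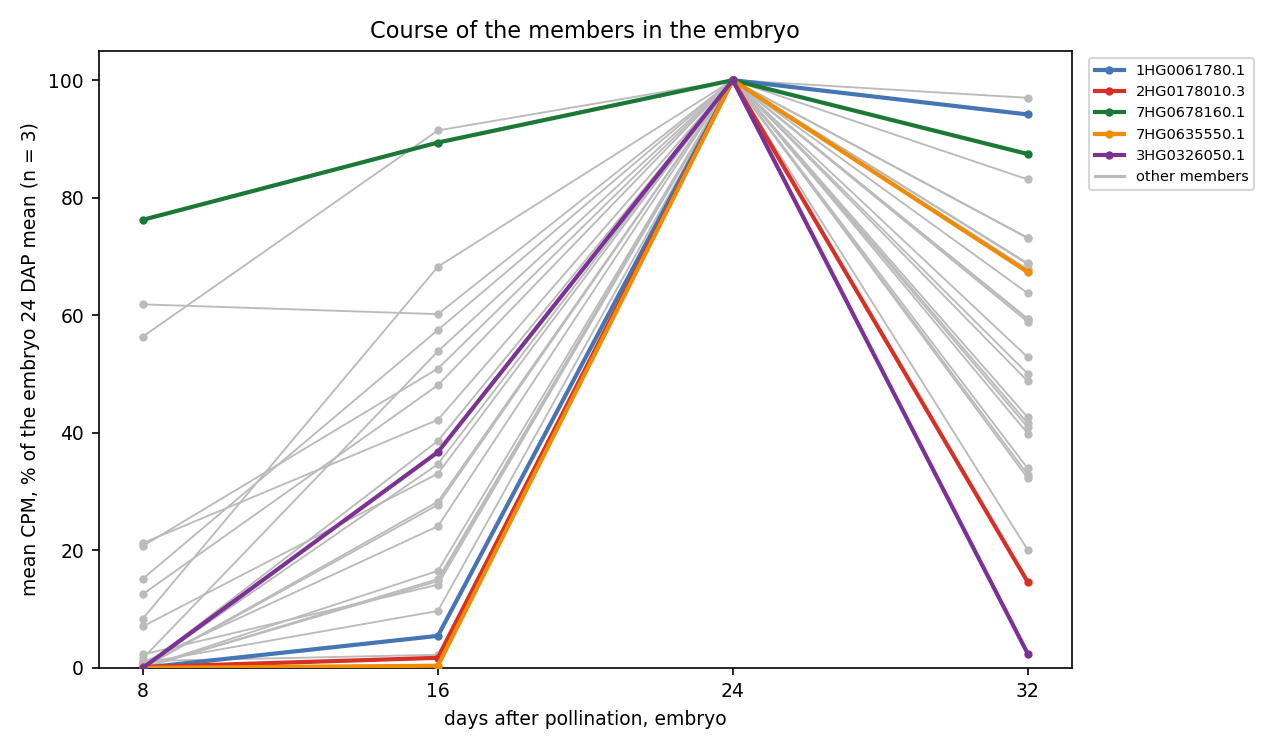
Mean CPM (n = 3) of each of the 27 members in the embryo by DAP, as a percent of its own mean at 24 DAP; points are stage means, grey lines are members, and the 5 coloured lines are members described in the text. Most lines climb from 8 to 24 DAP and lie lower at 32 DAP, at a median of 58.9% of the 24 DAP level; HORVU.MOREX.r3.7HG0678160.1 is nearly flat, and HORVU.MOREX.r3.3HG0326050.1 drops to 2.40% of its 24 DAP level.

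Genes just inside and just outside the limits of the rule had much the same values. HORVU.MOREX.r3.5HG0528070.1 was the member closest to both numerical limits, with 24.2, 21.1 and 16.3 CPM at 24 DAP, a mean of 20.5 CPM and 10.8 times the highest other tissue. Just outside, HORVU.MOREX.r3.4HG0343000.1 averaged 18.9 CPM, HORVU.MOREX.r3.3HG0309300.1 reached 28.4 CPM but only 9.11 times the other tissues, and HORVU.MOREX.r3.3HG0311160.1 had 57.5 CPM, just under its own mean at another embryo stage. If the embryo stage of the peak is left free, 52 genes had 20 CPM in the 24 DAP embryo at 10 times the other tissues. Of these, 27 peaked at 24 DAP and 9 at 32 DAP, while 13 had their peak at 16 DAP and 3 theirs at 8 DAP.

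Changes that did not involve the 24 DAP embryo were tested with edgeR's quasi-likelihood test across 29594 genes, with Benjamini-Hochberg adjustment over all of them. The threshold for rose, fell, higher or lower was an adjusted p under 0.05 together with an absolute log2 fold change of 1 or more. All 27 members passed the filter on low counts, which was applied over all 13 groups. The comparisons of the embryo at 8 and 16 DAP and at 16 and 32 DAP share the 16 DAP libraries, and those outside the embryo share the endosperm or the seed maternal libraries.

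From 8 to 16 DAP the embryo gained RNA of most members, ahead of their peak. Of 27 members, 17 rose and 0 fell, and the means of 26 were higher at 16 DAP. Over all genes tested, 11.8% rose and 4.93% fell. For 16 of the 17 the 3 libraries at 16 DAP all lay above those at 8 DAP, and 11% of all genes tested were called higher with such a separation. The median log2 fold change was 4.07 over the 26 members above the counting floor (3 counts in a library). It was 3.54 when genes at or under that floor at 8 DAP were set to their lower bound, and 0.01 over all genes tested. When the 2 groups were fitted alone, 23 of 27 members passed the filter on low counts. In that fit 17 rose, 15 of them among the 17 above, beside 2905 genes in all. Each fit of 2 groups alone, here and below, filters the genes anew, so its counts cannot be set against the shares of the main fit.

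The largest rise from 8 to 16 DAP was that of HORVU.MOREX.r3.1HG0061780.1, from 0.0552 ± 0.0545 to 289 ± 239 CPM (SD, n = 3), a log2 fold change of 11.79 (SE 1.28, adjusted p = 1.96e-07, edgeR). HORVU.MOREX.r3.4HG0335650.1 had 0, 0 and 0.0544 CPM at 8 DAP, at or under 3 counts in each library, and 15.6, 194 and 128 CPM at 16 DAP. The mean of the later stage was at least 754-fold higher (adjusted p = 3.36e-06, edgeR). Both genes had their lowest 16 DAP value in replicate 1, and this library still lay above all 3 libraries at 8 DAP. Among the members that did not pass were HORVU.MOREX.r3.7HG0678160.1, with a log2 fold change of 0.09 (adjusted p = 0.988), and HORVU.MOREX.r3.3HG0220770.1, with -0.19 (adjusted p = 0.903), both of which were singled out after their values were seen. Genes that peaked in the 16 DAP embryo by the same rule rose in 27 of 63 cases (42.9%) and those that peaked at 32 DAP in 13 of 23 (56.5%), beside 63.0% of the members. Their own peak stage takes part in the choice of the 16 DAP list, and the differences between lists were not tested.

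The comparison of 32 with 16 DAP shows on which side of the peak the members were higher. Of 27 members, 9 were higher at 32 DAP and 1 was lower, against 14% and 18.9% of all genes tested. The median log2 fold change was 0.83 over the members and 0.00 over all genes tested. By their means alone, 20 members were higher at 32 DAP. The 3 libraries of one stage all lay above those of the other for each of the 9 members that were called higher, and 13.4% of all genes tested met both conditions.

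The largest differences were those of members that had barely begun at 16 DAP. HORVU.MOREX.r3.7HG0635550.1 had 0 counts at 8 DAP, 0.376, 0.130 and 0.145 CPM at 16 DAP, 48.7, 78.7 and 56.2 CPM at 24 DAP and 41.6, 57.8 and 24.2 CPM at 32 DAP. Its log2 fold change from 16 to 32 DAP was 7.83 (SE 1.32, adjusted p = 0.000281, edgeR). With DESeq2 it had an adjusted p of 0.0533. HORVU.MOREX.r3.2HG0182470.1 had 0, 0 and 0.109 CPM at 16 DAP, and its 32 DAP mean was at least 63.9-fold higher (adjusted p = 4.33e-06, edgeR). HORVU.MOREX.r3.1HG0061780.1 was higher at 32 DAP by 4.33 on the log2 scale (SE 0.81, adjusted p = 8.93e-05).

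HORVU.MOREX.r3.3HG0326050.1, singled out after its values were seen, was the member that was lower at 32 DAP. It averaged 10.8 ± 9.26 CPM (SD, n = 3) at 16 DAP and 0.705 ± 0.281 CPM at 32 DAP, a log2 fold change of -3.71 (SE 1.24, adjusted p = 0.0203, edgeR). Its libraries overlapped, since replicate 1 at 16 DAP lay below all 3 at 32 DAP, and the call was lost without the 16 DAP library of replicate 3 and without the 32 DAP library of replicate 1 or 3. With upper-quartile scaling 14 members were higher at 32 DAP, and the count over all genes went from 4149 to 5009.

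**Figure D4:**
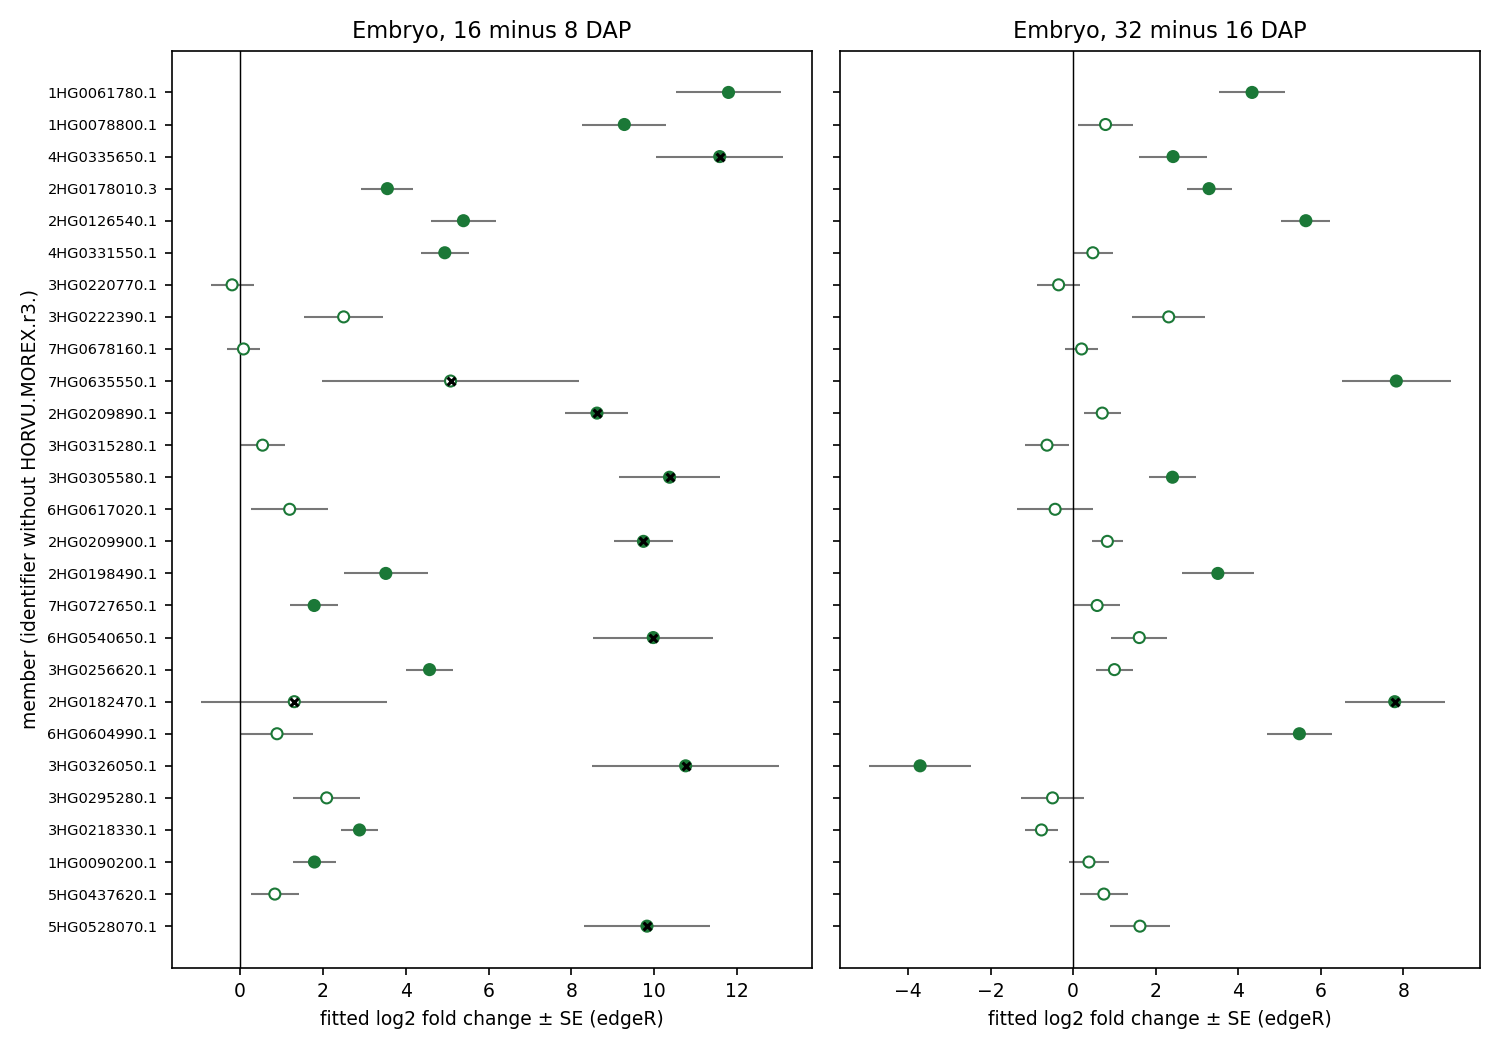
Log2 fold change of each member from 8 to 16 DAP and from 16 to 32 DAP in the embryo, with bars of 1 SE; filled points passed the test, and crosses mark members at or under 3 counts in every library of one group. Filled points lie to the right of 0 in the first panel, and in the second only HORVU.MOREX.r3.3HG0326050.1 is filled on the left.

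Outside the embryo the members were scarce but not absent. Their highest group in another tissue was the 24 DAP seed maternal tissues for 17 of 27 members. HORVU.MOREX.r3.3HG0218330.1, singled out after its values were seen, had 25.8, 26.7 and 25.0 CPM in the 24 DAP embryo and at most 3 counts in each library of the other tissues. The members summed to 18.7 ± 0.741 CPM (SD, n = 3) in the seed maternal tissues at 16 DAP and 178 ± 70.4 CPM at 24 DAP. In the endosperm they summed to 29.2 ± 4.17 CPM at 16 DAP, 128 ± 46.6 CPM at 24 DAP and 263 ± 66.4 CPM at 32 DAP. Most of the endosperm sum was HORVU.MOREX.r3.1HG0061780.1. Without this gene the endosperm sums were 4.25 ± 4.38, 5.78 ± 0.974 and 14.2 ± 3.82 CPM at these stages. The maternal sums without it were 18.4 ± 0.939 CPM at 16 DAP and 93.5 ± 44.8 CPM at 24 DAP.

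In the seed maternal tissues 14 of 27 members rose from 16 to 24 DAP and 0 fell, while 4.18% of all genes tested rose and 3.94% fell. The means of 24 members were higher at 24 DAP, and the libraries did not overlap for 12 of the 14. Of all genes tested, 3.76% were both called higher and separated in this way. Many members passed the filter on low counts through their embryo libraries, so the count of 14 cannot be read directly against these shares. When the 2 groups were fitted alone, 18 of 27 members passed it and 7 rose, all among the 14, beside 710 genes in all. At 16 DAP 14 members were at or under 3 counts in every library, and at 24 DAP 1 was. The median log2 fold change was 5.54 over the 26 members above the floor and 2.36 with those at the floor set to their lower bound, against 0.04 over all genes tested.

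HORVU.MOREX.r3.1HG0078800.1 had 0 counts in all 3 libraries of seed maternal tissues at 16 DAP and 37.2, 2.87 and 67.0 CPM at 24 DAP. Its 24 DAP mean was at least 333-fold higher (adjusted p = 3.62e-06, edgeR). HORVU.MOREX.r3.2HG0126540.1 went from 0 counts to 4.89, 10.6 and 14.8 CPM, with a mean at least 94.0-fold higher (adjusted p = 6.99e-07, edgeR). HORVU.MOREX.r3.1HG0061780.1 had 0, 0.751 and 0.186 CPM at 16 DAP and 27.1, 127 and 98.4 CPM at 24 DAP, a log2 fold change of 8.09 (SE 1.04, adjusted p = 7.68e-06, edgeR). Every 24 DAP library of these 3 genes lay above every 16 DAP library. The level varied widely between the 24 DAP libraries, and replicate 3 was the highest for 15 members, replicate 2 for 9 and replicate 1 for 3. Without replicate 3 of every group, 9 members were called higher, and the count over all genes went from 1237 to 996.

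As a share of the level in the 24 DAP embryo, the 24 DAP seed maternal tissues held a median of 2.91% over the members and at most 6.70%. The shares were 1.59% for HORVU.MOREX.r3.1HG0061780.1, 3.16% for HORVU.MOREX.r3.1HG0078800.1, 0.521% for HORVU.MOREX.r3.4HG0335650.1 and 2.19% for HORVU.MOREX.r3.2HG0126540.1. These shares rest on means of libraries that varied widely, such as 1.17, 0.684 and 10.1 CPM for HORVU.MOREX.r3.4HG0335650.1, and differences between them were not tested. The lists of genes that peaked at other embryo stages, chosen by the same rule, were put through the same comparison. Of those peaking at 32 DAP 18 of 23 rose (78.3%), of those peaking at 16 DAP 22 of 63 (34.9%) and of those peaking at 8 DAP 14 of 98 (14.3%), beside 51.9% of the members. In the other direction 0 of 23, 5 of 63 (7.94%) and 8 of 98 (8.16%) fell, beside 0 of the members. These percentages came from the fit of 13 groups, where genes could pass the filter through the embryo libraries that chose them. Only the members were also looked at in a fit of the maternal groups alone, and differences between the lists were not tested. The medians of the 32, 16 and 8 DAP lists in the 24 DAP seed maternal tissues were 3.81%, 1.11% and 0.312% of their own embryo peak. The summed level of the 32 DAP list went from between 32.6 and 92.3 CPM at 16 DAP to between 393 and 899 CPM at 24 DAP, and that of the 16 DAP list from between 46.2 and 65.3 CPM to between 82.7 and 99.3 CPM. The 8 DAP list summed to between 102 and 119 CPM and then to between 93.4 and 122 CPM, so its libraries overlapped. The part of embryo RNA in the dissected maternal tissue was not tested.

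**Figure D5:**
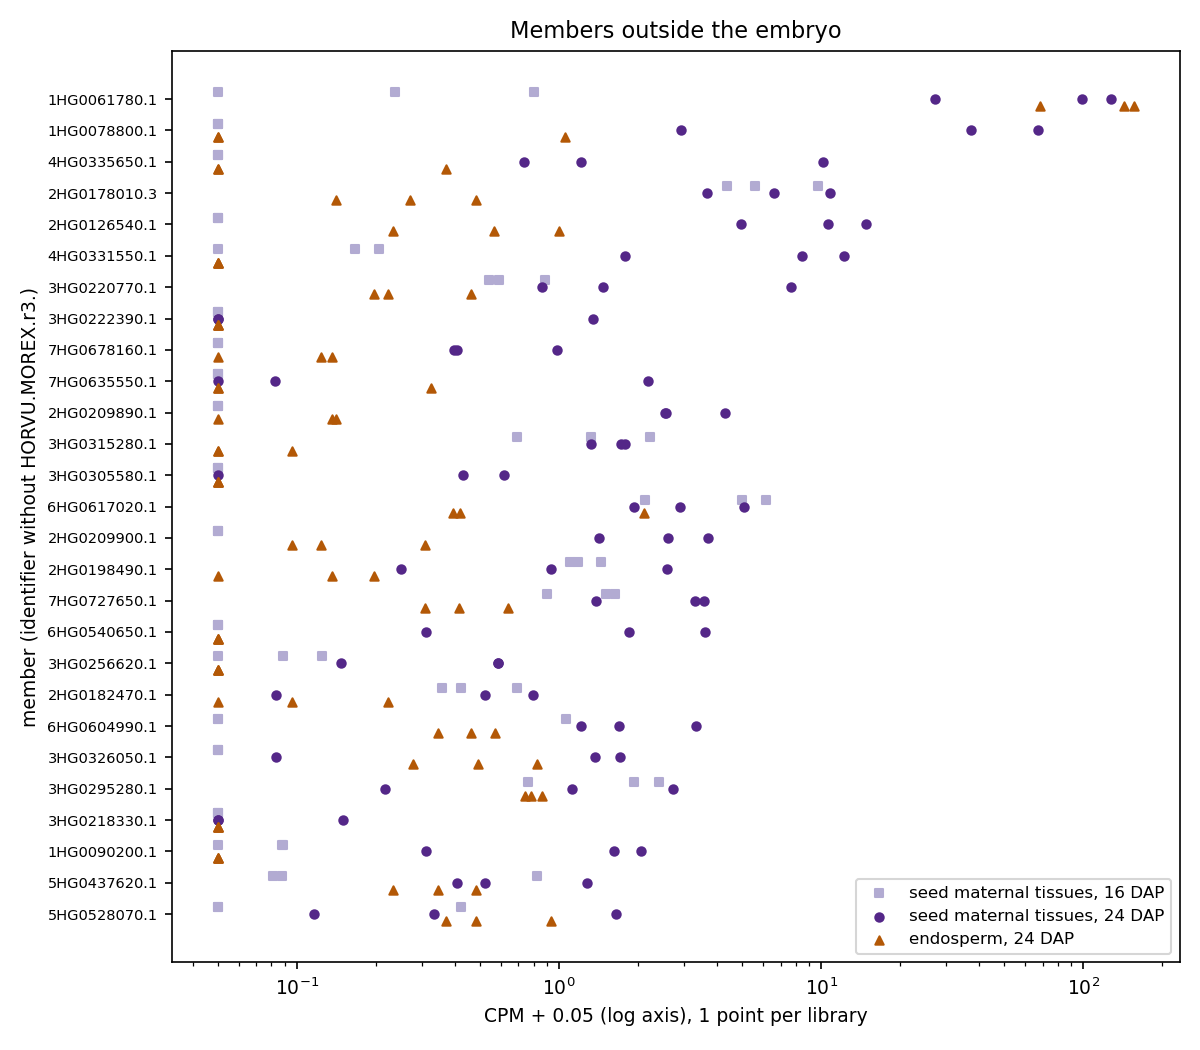
Level of each member in the single libraries of seed maternal tissues at 16 DAP (squares) and 24 DAP (circles) and of endosperm at 24 DAP (triangles), as CPM + 0.05 on a log axis. Circles lie to the right of squares for most members, and only HORVU.MOREX.r3.1HG0061780.1 has triangles above 60 CPM.

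The change from 16 to 24 DAP itself was larger in the seed maternal tissues than in the endosperm for 2 members and smaller for 0, in a test of the difference added after the data were seen. The shares over all genes tested were 3.29% and 2.27%, but 6 of the 27 members had no usable standard error in this test and could not be called. Most of the others had few endosperm reads, so the members' count cannot be read against these shares. In the endosperm no member passed the test from 16 to 24 DAP. With edgeR 0 members rose and 0 fell, and 5 had an unadjusted p under 0.05. Of all genes tested 3.47% rose and 3.54% fell, but the members' count cannot be read against these shares. When the 2 endosperm groups were fitted alone, only 2 of 27 members passed the filter on low counts, and the others were tested through their reads in other groups. DESeq2 called 3 members higher and 1 lower, and 1227 genes higher and 1158 lower in all. At both stages 10 members were at or under 3 counts in every library, so a change in these was not detectable at this depth. HORVU.MOREX.r3.1HG0061780.1 had 24.6, 25.1 and 24.9 CPM at 16 DAP and 143, 156 and 68.0 CPM at 24 DAP. Its libraries did not overlap, yet the log2 fold change of 2.09 (SE 0.74) had an adjusted p of 0.0690 in edgeR, so its call depended on the fit. It passed with scaling by library size alone (adjusted p = 0.0478), without replicate 1 of every group (adjusted p = 0.0149) and when the 2 endosperm groups were fitted alone (log2 fold change 2.15, adjusted p = 0.00782). At 32 DAP it had 325, 218 and 203 CPM and made up 94.6% of the members' summed CPM in the endosperm.

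At 24 DAP 14 of 27 members were lower in the endosperm than in the seed maternal tissues and 0 were higher, against 25.6% and 18.8% of all genes tested, and the 3 libraries of one tissue lay apart from the 3 of the other for all 14. Of all genes tested, 25.3% were called lower with such a separation. The library numbers of both groups lie in separate runs. With a term for these runs 10 members were lower, 9 of them among the 14, and the count over all genes went from 7571 to 4404. When the 2 groups were fitted alone, 17 members passed the filter, 11 were lower and 1 was higher, beside 6895 and 4560 genes in all. The other members were tested through their reads in other groups, so the count of 14 cannot be read directly against the shares above. The median log2 fold change was -3.43 over the 26 members above the floor and -1.78 with bounds, against -0.07 over all genes tested. HORVU.MOREX.r3.4HG0331550.1 had 0 counts in the endosperm and 1.73, 12.2 and 8.41 CPM in the maternal libraries. Its mean was at least 36.2-fold lower in the endosperm (adjusted p = 8.29e-06, edgeR). HORVU.MOREX.r3.1HG0078800.1 had 0, 0 and 1.00 CPM in the endosperm, with a log2 fold change of -5.49 (SE 0.95, adjusted p = 2.68e-05, edgeR).

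HORVU.MOREX.r3.1HG0061780.1 was the member with the higher mean in the endosperm at 24 DAP, 122 ± 47.5 against 84.3 ± 51.7 CPM (SD, n = 3), a log2 fold change of 1.34 that did not pass (adjusted p = 0.118, edgeR). It passed with upper-quartile scaling (1.73, adjusted p = 0.0438) and when the 2 groups were fitted alone (1.35, adjusted p = 0.0375). The normalization factors were 0.454 to 0.921 in the endosperm and 1.21 to 1.35 in the seed maternal tissues, and with scaling by library size alone the median of all genes moved to -0.89. Without replicate 3 of every group, 9 members were called lower, beside 6943 genes in all.

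The identifiers name a chromosome and an order of genes, and the members were spread over all 7 chromosomes. Chromosome 3H held 8 of 27 (29.6%), where it had 15.0% of the entries with counts, and 2H held 6 (22.2%), where it had 16.3%. These shares were not tested. Only 2 members stood next to each other, HORVU.MOREX.r3.2HG0209890.1 and HORVU.MOREX.r3.2HG0209900.1, a pair singled out after its values were seen. The first had 12.3, 22.7 and 24.8 CPM in the embryo at 16 DAP, 54.9, 50.7 and 67.0 CPM at 24 DAP and 24.5, 23.6 and 36.1 CPM at 32 DAP. The second had 12.1, 25.3 and 19.4 CPM, 52.1, 48.0 and 47.2 CPM and 27.4, 24.1 and 35.2 CPM at these stages. The levels of the pair were alike at each stage, and if the neighbours are near-identical copies the counting could have split reads between them. All other members were at least 162 genes from the next.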

How the data were processed

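The authors deposited a table of whole-number read counts per transcript entry for the 39 libraries, neither pooled nor normalized. Per the submitters' processing notes, HISAT2 2.1.0, Subread 1.5.2, SAMtools and bcl2fastq were used. Genome build, strand use and the handling of multi-mapping reads are not given in the sources used here. No entry was a total. The reference gene table (assembly MorexV3) matched 0 of 83990 identifiers, so names, sequences and the planned lists of described gene families were not used.

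CPM used the total of each library. Members, comparison lists and tests were chosen with earlier results of these data known. Genes were tested with edgeR 4.0.16 (limma 3.58.1, R 4.3.3) in one model of 13 groups over 39 libraries, with 26 residual degrees of freedom. Factors were trimmed mean of M-values (TMM), and filterByExpr left 29594 entries. The fit was robust, and SEs of log2 fold changes came from the F statistic of the quasi-likelihood test. DESeq2 1.42.0 was an alternative. The script was tested on simulated data.

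A group with at most 3 counts in every library was treated as at the floor. Folds against it are lower bounds on CPM, from the mean of the other group over 3 counts per library. They leave out the spread of the libraries in that other group. Floors cover counting error only, because PCR copies cannot be told from separate molecules.

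Genes named were the 2 highest members, the 2 with the largest and the 2 with the smallest ratio to the next embryo stage, up to 2 called per direction and comparison (without overlap, at least 5 CPM), and those nearest each limit; others are marked.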

Additional observations from a re-analysis of the deposited data

Results flagged for a closer look

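The change from 16 to 24 DAP was compared between the seed maternal tissues and the endosperm in the same edgeR fit, a test added after the data were seen. Of the 27 members, 6 had no usable standard error and could not be called. Of the other 21 members 2 were called, both with the larger rise in the seed maternal tissues, and 0 in the other direction. Over all genes tested the shares were 3.29% and 2.27%, but the members' count cannot be read against them, since only 2 of 27 members passed the filter on low counts when the endosperm groups were fitted alone. For HORVU.MOREX.r3.1HG0061780.1 the log2 changes differed by 5.997 (SE 1.21, adjusted p = 0.00277), as its log2 fold change was 8.09 in the seed maternal tissues and 2.09 in the endosperm, with all 3 libraries at 24 DAP above the 3 at 16 DAP in both. For HORVU.MOREX.r3.7HG0678160.1 the fitted difference was 7.741 (SE 1.98, adjusted p = 0.0146), a value that is no measure of size because the maternal libraries at 16 DAP and the endosperm libraries at 24 DAP were at or under 3 counts. It rests on few reads, 0.347, 0.358 and 0.934 CPM in the maternal libraries at 24 DAP after 0 counts at 16 DAP, and 0.327, 0 and 0 CPM in the endosperm at 16 DAP before at most 0.0863 CPM at 24 DAP.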

How the results depend on the processing

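Of 209 alternative values of the counts of members, 186 kept within 1.5 times the main count. A count of 0 beside a main count of 0 was taken as kept, as for members that fell from 8 to 16 DAP. Fits without a library of the 24 DAP embryo, which is in neither embryo comparison, were also included. The 186 thus include many values with little room to move. Of 164 values of single members, 163 kept direction and side of the threshold and 0 reversed. Those members were chosen as called, with separated libraries and the largest fold changes, so these values too had little room to move. The cause of the exceptions was not tested, except where fewer members could be tested. Of members higher at 32 than at 16 DAP there were 14 with upper-quartile factors; of members lower, 0 with no low-count filter and 0 to 1 over the leave-one-out fits. In the endosperm from 16 to 24 DAP, members higher were 1 with library size alone, 2 within library numbers 83680 to 83691, 1 in a fit of the groups compared (2 members tested), 3 with DESeq2 and 0 to 1 with libraries left out (1 without replicate 1); members lower were 1 with a library-number term and 1 with DESeq2. In the seed maternal tissues from 16 to 24 DAP, members higher were 7 in a fit of the groups compared (18 members tested) and 9 to 14 with libraries left out. At 24 DAP, members higher in the endosperm than in the seed maternal tissues were 1 with upper-quartile factors, 1 in a fit of the groups compared and 0 to 1 with libraries left out (1 without replicate 2 of the 24 DAP seed maternal tissues); members lower were 9 to 15. From 8 to 16 DAP in the embryo, 13 to 18 rose with libraries left out. Leaving out single libraries of groups outside the embryo and of the 24 DAP embryo was added after seeing the data. The rule gave 49 genes at 5 times the other tissues, 16 at 20 times and 14 with a minimum of 50 CPM. It gave 24 with TMM-scaled CPM, 22 of them members, and 27 to 31 with libraries left out, 24 to 26 of them members. With counts summed over the entries of each gene it gave 26, all of them genes of members. With a replicate block the counts were 17, 9 higher and 1 lower, 0, 14 and 14, as without it. Same-numbered libraries correlated at -0.203 to 0.196 after group means were removed. Weak correlations between different tissues or stages cannot show that the numbers do not pair the samples. For 32 against 16 DAP no fit with a library-number term could be had.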

Other observations

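The gene next to the most abundant member, HORVU.MOREX.r3.1HG0061770.1, was not a member because its mean in the embryo was higher at 32 than at 24 DAP. It had 0.984, 0.227 and 2.40 CPM in the embryo at 8 DAP, 28.2, 104 and 63.5 CPM at 16 DAP, 7388, 7861 and 4943 CPM at 24 DAP and 7935, 8182 and 4303 CPM at 32 DAP. The libraries at 24 and 32 DAP overlapped. In the 24 DAP seed maternal tissues it had 5.24, 69.6 and 131 CPM, and it averaged 102 ± 44.0 CPM (SD, n = 3) in the 32 DAP endosperm. These values were looked up after the members were known and are given without a test.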
